A study of Mus musculus with 90 samples.

Results

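The IGF-binding proteins were followed as the genes Igfbp1, Igfbp2, Igfbp3, Igfbp4, Igfbp5, Igfbp6 and Igfbp7 in livers of mice on night-restricted feeding (NRF). They were picked by name, as 7 of the 24312 gene symbols in the RNA table, and each was represented by the RefSeq transcript with the highest mean. RNA had been sequenced from 54 livers, each from a single mouse of a C57BL/6 background, in 16 groups and 5 experiments, and GR peaks, FOXO1 peaks and DNase I hypersensitive sites (DHSs) from the same study were placed around the 7 start sites. Food was present only in the dark period for 4 days before the livers were taken, and ZT counts hours from lights on.

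The NRF experiment used uninjected wild-type mice, 2 at ZT10, 2 at ZT14 without food (ZT14-unfed) and 2 at ZT14 after food (ZT14-fed), with RNA depleted of ribosomal RNA. All other libraries were poly(A)-enriched and taken at ZT14. The injected mice were wild type, 4 per group, and were unfed with vehicle (PBS) or fed with vehicle, the synthetic glucocorticoid dexamethasone (dex, 1 mg/kg), the insulin receptor blocking peptide S961 (44 nM per mouse in the labels, a dose per body weight in the study's methods), or dex plus S961. In the L-GRKO experiment, unfed Nr3c1 fl/fl mice had received AAV-GFP (4 mice) or AAV-CRE (4 mice) before the feeding routine, with expression driven by the liver Tbg promoter. In the L-IRSdKO experiment, 4 Irs1 fl/fl, Irs2 fl/fl mice without Cre were compared with 4 that carried Alb-Cre, and all 8 were fed and had received 1 mg/kg dex. The obesity experiment held 3 mice per group, unfed or fed, after 10 weeks of high-fat diet (DIO, obese) or chow (lean). By the study's methods, the wild-type mice of the NRF and injected experiments were 10 weeks old, as were the L-IRSdKO mice, and the Nr3c1 fl/fl mice were adults. For the obesity experiment the methods give an age only at the start of the diet, so after 10 weeks of it these mice were older than 10 weeks. Males are stated for the uninjected and the diet-fed mice. All labels give C57BL/6, but the methods give C57BL/6N for the wild-type and Nr3c1 fl/fl mice and C57BL/6J for L-IRSdKO, so that experiment also differs by substrain from the NRF, injected and L-GRKO experiments.

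IGF-binding proteins are secreted proteins that hold insulin-like growth factors (IGFs) in blood and tissue and so set how much IGF can reach its receptor. Most circulating IGF-I is carried with Igfbp3 or Igfbp5 and the acid-labile subunit (Igfals), whereas Igfbp1, Igfbp2, Igfbp4 and Igfbp6 form smaller complexes. Hepatocytes make Igfbp1 in amounts that change within hours, since insulin represses its transcription through FOXO1 and glucocorticoids induce it through GR.

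Depth, estimated from the smallest step between low RPKM values, ran from 26.1 to 38.3 M reads in the NRF libraries, 6.5 to 13.5 M in the injected mice and 16.9 to 62.3 M in the obesity experiment, and in the other experiments that step did not match the aligned reads, so no depth is given. None of 5 hepatocyte markers was at 0 in any library, but their summed RPKM was 2342 to 2834 in the 8 livers of the L-IRSdKO experiment and 28154 to 74555 in all other livers. The deleted genes were checked in every mouse of their experiments. Nr3c1 was at 3.93 to 5.35 RPKM with AAV-CRE and 12.8 to 16.2 with AAV-GFP, and Irs1 at 0.149 to 0.321 RPKM in L-IRSdKO and 2.21 to 4.73 in floxed livers. Irs2 ranged from 0.272 to 1.00 RPKM in L-IRSdKO and from 0.614 to 5.61 in floxed livers, and these ranges overlapped. The values are from whole liver, in which fewer cells of a type and less RNA per cell cannot be told apart.

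In RPKM, which is scaled to transcript length and library size, the 7 RNAs differed widely in level. Igfbp4, a binding protein that restrains IGF action until a protease cuts it, had the highest mean over the 54 libraries with 565 RPKM (range 294 to 833). Igfbp2 followed with 254 RPKM (61.7 to 483), Igfbp1 with 88.7 (0.812 to 559), and Igfbp7, a low-affinity member that is made by endothelial cells of many tissues, with 42.0 (26.9 to 88.7). Igfbp3, which carries most circulating IGF and in liver is made mainly by non-parenchymal cells, averaged 7.37 RPKM (2.84 to 21.6). Igfbp5 and Igfbp6, the latter a binder that prefers IGF-II, were low with 1.78 RPKM (0.365 to 5.91) and 1.03 RPKM (0 to 6.71).

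Apart from Igfbp1, the order of the group means changed only within the pairs Igfbp2 and Igfbp4 and Igfbp5 and Igfbp6. Igfbp2 was above Igfbp4 in L-IRSdKO livers (421 and 324 RPKM). Igfbp6 was above Igfbp5 at ZT14-unfed and in both groups of the L-IRSdKO experiment. Igfbp4 was the highest member in 50 of the 54 libraries, Igfbp1 in 3 of the 4 L-IRSdKO livers, and Igfbp2 in 1 ZT10 liver, where it was at 322 RPKM beside 319 RPKM for Igfbp4. Igfbp5 or Igfbp6 was the lowest in 53 libraries, and Igfbp1 was the lowest in 1, fed lean replicate 1. Between the lowest and the highest of the 16 group means, Igfbp1 spanned 567-fold (0.860 to 488 RPKM), Igfbp6 26.8-fold, Igfbp5 5.45-fold, Igfbp3 4.63-fold, Igfbp7 3.01-fold, Igfbp2 2.65-fold and Igfbp4 2.34-fold. These spans cross experiments that differ in RNA selection and cohort, and the highest means of Igfbp1, Igfbp2, Igfbp3, Igfbp6 and Igfbp7 all lay in the L-IRSdKO experiment, so group and experiment cannot be told apart in them. That experiment also had the low sums of hepatocyte markers, whose part in these levels was not tested.

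**Figure D1:**
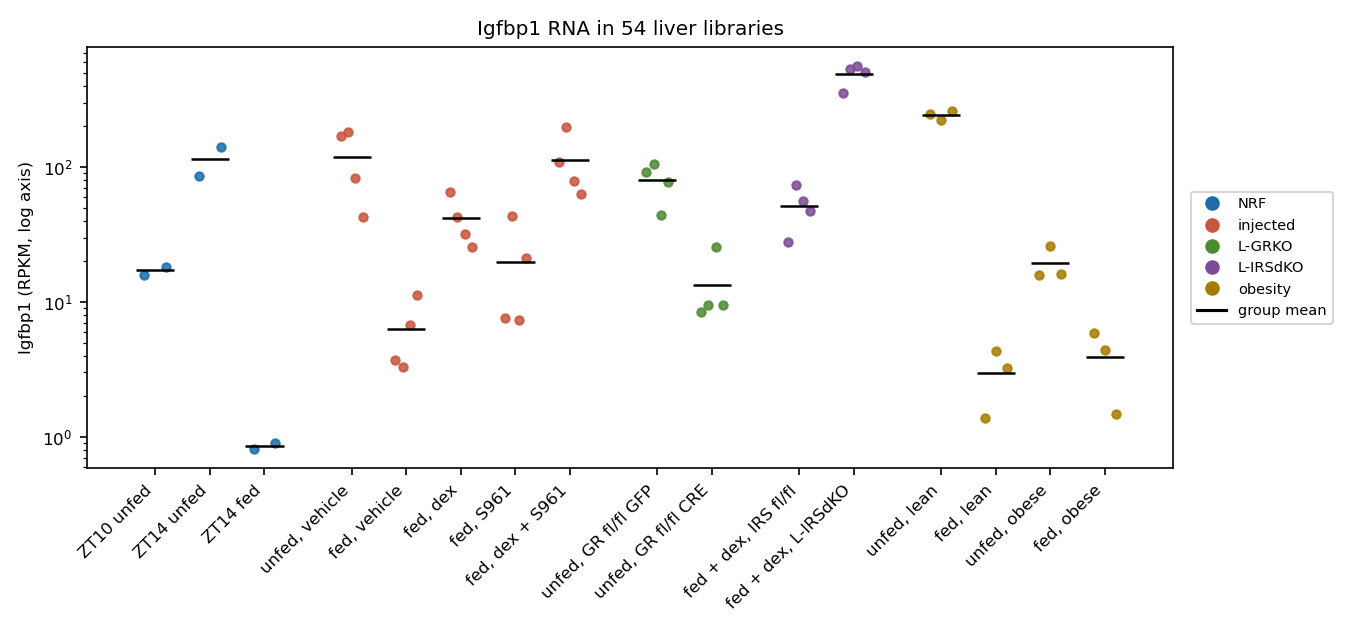
Igfbp1 RNA in RPKM on a log axis for each of the 54 libraries, in the 16 groups, with points coloured by experiment and a black bar at each group mean. The means run from 0.860 RPKM at ZT14-fed to 488 RPKM in L-IRSdKO livers, and the 3 unfed lean livers lie above the 3 unfed obese livers.

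Igfbp1 (NM_008341, ENSMUSG00000020429) lies on the plus strand of chromosome 11, from 7097785 to 7102549 of mm9, with 4 exons. Igfbp3 lies next to it on the minus strand (7106089 to 7113926), so the genes point towards each other with 3539 bp between their ends. In the peak lists of unfed livers, 5 GR peaks and 5 FOXO1 peaks lay within 50 kb of the Igfbp1 start site, and each of these FOXO1 peaks overlapped a GR peak. Of 18201 protein-coding genes placed on mm9, 34.0% had a GR peak within 50 kb, 35.8% a FOXO1 peak and 25.1% both, and 1.15% had at least as many of each as Igfbp1. The nearest shared sites were centred 3.0 and 4.9 kb upstream in the intergenic stretch, and the other 3 lay 41 to 45 kb upstream in introns of Adcy1, an adenylyl cyclase gene. A DHS covered the promoter, with its centre 58 bp upstream of the start, and no GR or FOXO1 peak lay on it. The lists hold positions without scores, so no site can be weighted.

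The promoter and 3 of the FOXO1 intervals are shown because each holds letters that GR or forkhead factors are known to bind. They come from the member with the widest range. Capitals mark matches, on either strand, to a relaxed glucocorticoid element (the arms GNACA and TGTNC with 3 bases between them), to AGAACA as a single glucocorticoid element arm, to GTAAACA as a forkhead motif and to CAAAACA as the insulin response sequence. All stretches are from the plus strand of mm9.
Igfbp1 promoter, chr11:7097535-7097784: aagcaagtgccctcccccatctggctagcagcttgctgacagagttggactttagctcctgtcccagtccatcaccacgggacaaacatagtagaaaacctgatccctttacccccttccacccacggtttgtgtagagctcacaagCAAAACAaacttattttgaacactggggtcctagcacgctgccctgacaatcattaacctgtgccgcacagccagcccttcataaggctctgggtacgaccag
Igfbp1 site 3.0 kb upstream, chr11:7094652-7094831: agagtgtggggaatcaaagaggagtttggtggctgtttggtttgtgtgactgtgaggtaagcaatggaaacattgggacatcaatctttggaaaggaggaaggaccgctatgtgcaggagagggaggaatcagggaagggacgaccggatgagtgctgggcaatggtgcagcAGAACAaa
Igfbp1 site 4.9 kb upstream, chr11:7092764-7092943: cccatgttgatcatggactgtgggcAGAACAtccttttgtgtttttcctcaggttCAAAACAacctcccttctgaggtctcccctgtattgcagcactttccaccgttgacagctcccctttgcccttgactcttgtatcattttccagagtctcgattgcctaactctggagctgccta
Igfbp1 site 41 kb upstream, chr11:7056411-7056590: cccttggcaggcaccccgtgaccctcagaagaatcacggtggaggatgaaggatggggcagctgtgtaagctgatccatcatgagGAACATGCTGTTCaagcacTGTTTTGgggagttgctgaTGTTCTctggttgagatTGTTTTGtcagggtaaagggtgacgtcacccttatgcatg

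The promoter held CAAAACA at positions -103 to -97 from the start site, and 5.38% of all 250-base promoters held that motif. The site 41 kb upstream, which lay outside the DHS list, held the relaxed glucocorticoid element, 2 insulin response sequences and a separate arm within 180 bases. The relaxed element was present in 7.80% of GR peaks, 3.25% of FOXO1 peaks and 0.561% of DHSs. CAAAACA was present in 9.02% of FOXO1 peaks and AGAACA in 19.5%, so their presence in single intervals is common. GTAAACA, which 18.8% of FOXO1 peaks held, was in none of the 4 stretches. At the shared sites in the intergenic stretch, the marked letters lay in the FOXO1 intervals but outside the overlapping GR peaks. Those GR peaks held no match. The FOXO1 interval nearest the start site held an arm but no insulin response sequence. A match is a description of these letters and not of binding.

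In uninjected mice, Igfbp1 RNA was higher at ZT14 than at ZT10 when food was withheld, and fell to below 1 RPKM with the meal. It was at 15.9 and 18.3 RPKM at ZT10, at 85.7 and 142 RPKM at ZT14-unfed, and at 0.812 and 0.907 RPKM at ZT14-fed. The 3 groups did not overlap. On the log2(RPKM + 0.5) scale, used for all log2 values, the change without food was 2.66 by limma (SE 0.22, adjusted p = 0.0031), and the change with food -6.35 (SE 0.22, adjusted p = 8.3e-05), a 132-fold lower mean RPKM. The median of all genes moved by 0.12 with this meal, and by -0.14 with dex plus S961 in the injected mice. Igfbp1 was the 1 member of 7 past the threshold of 0.01 in each step, where 0.376% of 10907 genes rose between ZT10 and ZT14-unfed and 0.422% fell with the meal. The rise without food rested on both ZT10 livers, since the adjusted p was 0.027 or 0.029 without either of them. Both steps use the same ZT14-unfed livers.

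The meal lowered Igfbp1 in 2 other experiments. Among the vehicle-injected mice it was at 170, 183, 82.2 and 42.8 RPKM in the unfed and at 3.69, 3.28, 6.80 and 11.2 RPKM in the fed livers, with every unfed liver above every fed liver. The log2 fold change was -4.08 (SE 0.56, adjusted p = 0.0029), against a background of 0.578% of 11251 genes lower at the threshold of 0.05 of this experiment. In lean mice of the obesity experiment, Igfbp1 was at 246, 222 and 259 RPKM unfed and 1.39, 4.31 and 3.26 RPKM fed. The log2 fold change there was -6.22 (SE 0.42, adjusted p = 6.2e-05), an 81.1-fold lower mean, where 3.23% of 11434 genes fell.

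Replicate 4 of each injected group carries a library number of another series than replicates 1 to 3. Among the replicate 4 livers Igfbp1 differed less, by -1.88 between fed and unfed against -4.82 among the others, and by 1.15 between dex and vehicle against 3.22. For dex plus S961 the values were 2.43 and 4.62, and for S961 alone 0.89 and 1.53. All 4 directions were the same in both series, but that of replicate 4 has 1 mouse per group and no error of its own.

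In fed mice, Igfbp1 was higher with dex and with dex plus S961 than with vehicle. With both, the mean was 112 RPKM beside 119 RPKM in unfed vehicle mice. Dex plus S961 was not tested against S961 alone. Dex gave 65.8, 42.9, 32.0 and 25.6 RPKM, S961 gave 7.58, 43.5, 7.37 and 21.3 RPKM, and dex plus S961 gave 108, 197, 79.0 and 62.8 RPKM. All dex livers and all dex plus S961 livers lay above the highest fed vehicle liver (11.2 RPKM), and the S961 livers overlapped the vehicle livers. Against fed vehicle, the log2 fold change was 2.70 with dex (SE 0.56, adjusted p = 0.0104) and 4.07 with both (SE 0.56, adjusted p = 1.9e-04), and these means were 6.65-fold and 17.9-fold higher. Background shares of higher genes were 1.00% for dex and 2.70% for dex plus S961. S961 alone differed by 1.37 (95% interval 0.20 to 2.54, adjusted p = 0.256) and was not past the threshold, where 0.942% of genes were higher.

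Fed livers with dex plus S961 differed from unfed vehicle livers by -0.01 (95% interval -1.18 to 1.16, adjusted p = 0.999), and the values overlapped. In this contrast 2.32% of genes were called in either direction. A departure of the combination from the sum of the separate log2 changes was estimated at 0.00 (-0.0049, 95% interval -1.66 to 1.65), with 0 genes called among 11251 by limma and 513 at an unadjusted p under 0.05. The 4 contrasts with fed vehicle share the same 4 livers.

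Loss of GR from hepatocytes lowered Igfbp1 in unfed mice. The AAV-GFP livers were at 91.1, 106, 43.8 and 77.2 RPKM and the AAV-CRE livers at 8.42, 9.46, 25.6 and 9.51 RPKM. No AAV-CRE liver reached the lowest AAV-GFP liver, and AAV-CRE replicate 3 stood above the other 3. The log2 fold change was -2.62 (SE 0.35, adjusted p = 0.0019), with a 6.00-fold lower mean, where 2.22% of 11649 genes were lower. The mean left without GR, 13.2 RPKM, was above the fed vehicle mean of 6.25 RPKM, but these come from different experiments.

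Loss of IRS1 and IRS2 raised Igfbp1 to its highest level in fed, dex-treated mice. Floxed livers were at 28.0, 73.7, 55.6 and 47.4 RPKM and L-IRSdKO livers at 351, 532, 559 and 509 RPKM, with no overlap. The log2 fold change was 3.30 (SE 0.27, adjusted p = 6.2e-04), a 9.54-fold higher mean. This comparison called many genes, 9.06% of 12966 higher and 8.31% lower.

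Igfbp1 was lower in obese than in lean unfed mice. Unfed obese livers were at 15.9, 26.0 and 16.1 RPKM, and none came near the unfed lean livers (222 to 259 RPKM). Fed obese livers were at 5.90, 4.38 and 1.48 RPKM and overlapped the fed lean livers. The log2 fold change between obese and lean was -3.65 in unfed mice (SE 0.42, adjusted p = 0.0027), a 12.5-fold lower mean, where 0.350% of genes were lower. It was 0.28 in fed mice (95% interval -0.64 to 1.21, adjusted p = 0.753), a comparison in which limma called 0 genes and 2284 had an unadjusted p under 0.05. Without unfed DIO replicate 3 or any of the 3 unfed lean livers, the unfed difference no longer passed 0.01. Its adjusted p was then between 0.011 and 0.013.

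In obese mice the fed mean of Igfbp1 was 4.94-fold below the unfed mean, a log2 fold change of -2.29 (SE 0.42, adjusted p = 0.0118) that fell short of the threshold of 0.01 that 0.262% of genes passed in this direction. The meal effects of lean and obese mice differed by 3.93 on the log2 scale (95% interval 2.63 to 5.23, adjusted p = 0.0181), also short of 0.01, at which 0.131% of genes were called in either direction. Without fed DIO replicate 3 the adjusted p of this difference was 0.0080.

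**Figure D2:**
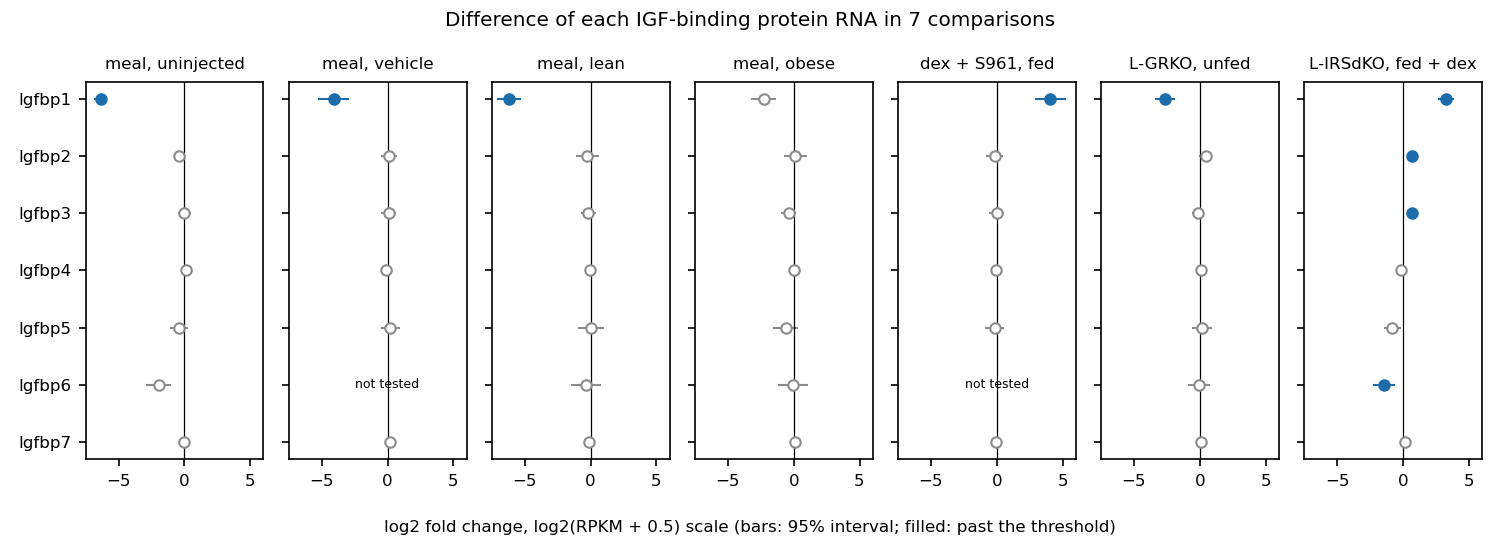
Log2 fold change of each of the 7 RNAs on the log2(RPKM + 0.5) scale in 7 comparisons, with 95% limma intervals and filled points for those past the threshold of the experiment. Igfbp1 is filled in 6 panels, from -6.35 to 4.07, and the other members are filled only in the L-IRSdKO panel, where Igfbp2 and Igfbp3 are higher and Igfbp6 is lower.

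Over the 15 comparisons, Igfbp1 was past the threshold in 9, and Igfbp2, Igfbp3 and Igfbp6 in 1 each, the loss of IRS1 and IRS2. Igfbp4, Igfbp5 and Igfbp7 passed in none. Igfbp6 was below the expression filter of a mean of 0.5 RPKM in the injected mice and was tested in the other 9 comparisons.

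With 4 of 7 members past the threshold of 0.05 (2 of them besides Igfbp1 higher, 1 lower), the L-IRSdKO comparison stands beside a background of 17.4% of genes in either direction. Igfbp2, a hepatocyte product, was at 241, 280, 259 and 257 RPKM in floxed and at 309, 464, 483 and 428 RPKM in L-IRSdKO livers. Every L-IRSdKO liver lay above every floxed liver, with a log2 fold change of 0.68 (SE 0.13, adjusted p = 0.0112). Igfbp3 was at 12.3, 9.96, 9.46 and 11.3 RPKM in floxed and at 21.6, 20.8, 16.1 and 13.5 RPKM in L-IRSdKO livers, a log2 fold change of 0.70 (SE 0.16, adjusted p = 0.0193). The Igfbp3 values did not overlap either, and without L-IRSdKO replicate 2 the adjusted p was 0.060.

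Igfbp6 was lower in L-IRSdKO livers, with 3.20, 6.71, 2.95 and 5.03 RPKM in floxed and 1.70, 2.58, 0.832 and 0.519 RPKM in L-IRSdKO livers. These values rest on only 12.1 to 28.5 steps of the smallest RPKM unit in floxed and 2.6 to 12.1 in L-IRSdKO livers. The groups did not overlap and the log2 fold change was -1.45 (SE 0.37, adjusted p = 0.0308), but it lost the threshold without floxed replicate 2 or 4 or L-IRSdKO replicate 3 or 4 (adjusted p 0.075 to 0.085). Igfbp5, a matrix-bound member, was at 2.01, 1.78, 1.16 and 1.87 RPKM and at 1.49, 0.848, 0.365 and 0.494 RPKM in the same groups, with a log2 fold change of -0.82 (SE 0.29, adjusted p = 0.080). L-IRSdKO replicate 1 was the high value, and without it the change was -1.05 (adjusted p = 0.0167). Over all expressed genes this liver also had the lowest mean correlation with its own group of any library. Its mean r was 0.941, beside 0.958 in the other L-IRSdKO livers, so shifts without it are not separate findings for each gene.

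Igfbp4 and Igfbp7 differed little between the L-IRSdKO groups. Igfbp4 was at 340, 361, 348 and 362 RPKM in floxed and at 367, 315, 318 and 294 RPKM in L-IRSdKO livers, which overlapped (log2 fold change -0.13, adjusted p = 0.238). Without L-IRSdKO replicate 1 it differed by -0.19 (adjusted p = 0.0249). Igfbp7 was at 69.8 to 77.2 RPKM in floxed and 73.8 to 88.7 RPKM in L-IRSdKO livers (0.14, adjusted p = 0.240).

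Markers of other liver cells also differed in this experiment. Of 5 markers of sinusoidal endothelial cells 3 were higher in L-IRSdKO livers, namely Lyve1 (log2 fold change 1.47), Pecam1 (0.65) and Stab2 (0.48), and 0 were lower. The summed RPKM of the 5 ran from 88.9 to 116 in floxed and from 108 to 143 in L-IRSdKO livers. Of 5 stellate and fibroblast markers tested, from a list of 6, 2 were higher, Colec11 (0.37) and Dcn (0.28), with sums of 120 to 147 and 149 to 168 RPKM. The sum of the 3 mesothelial markers Msln, Upk3b and Wt1 was 1.31 to 3.86 RPKM in floxed and 0.572 to 2.55 in L-IRSdKO livers, and that of the 3 cholangiocyte markers 2.05 to 2.85 and 0.299 to 1.71. Clec4f (0.46) was the 1 of 5 macrophage markers that was higher, with sums of 110 to 193 and 182 to 231 RPKM, and of 5 hepatocyte markers Ttr was lower (-0.45). Of the 2 cholangiocyte markers tested Krt7 was lower (-1.14), and both mesothelial markers tested, Msln and Upk3b, missed the threshold. None of these markers was at 0 in a group. Their part in the differences of Igfbp3, Igfbp5 and Igfbp6 was not tested.

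**Figure D3:**
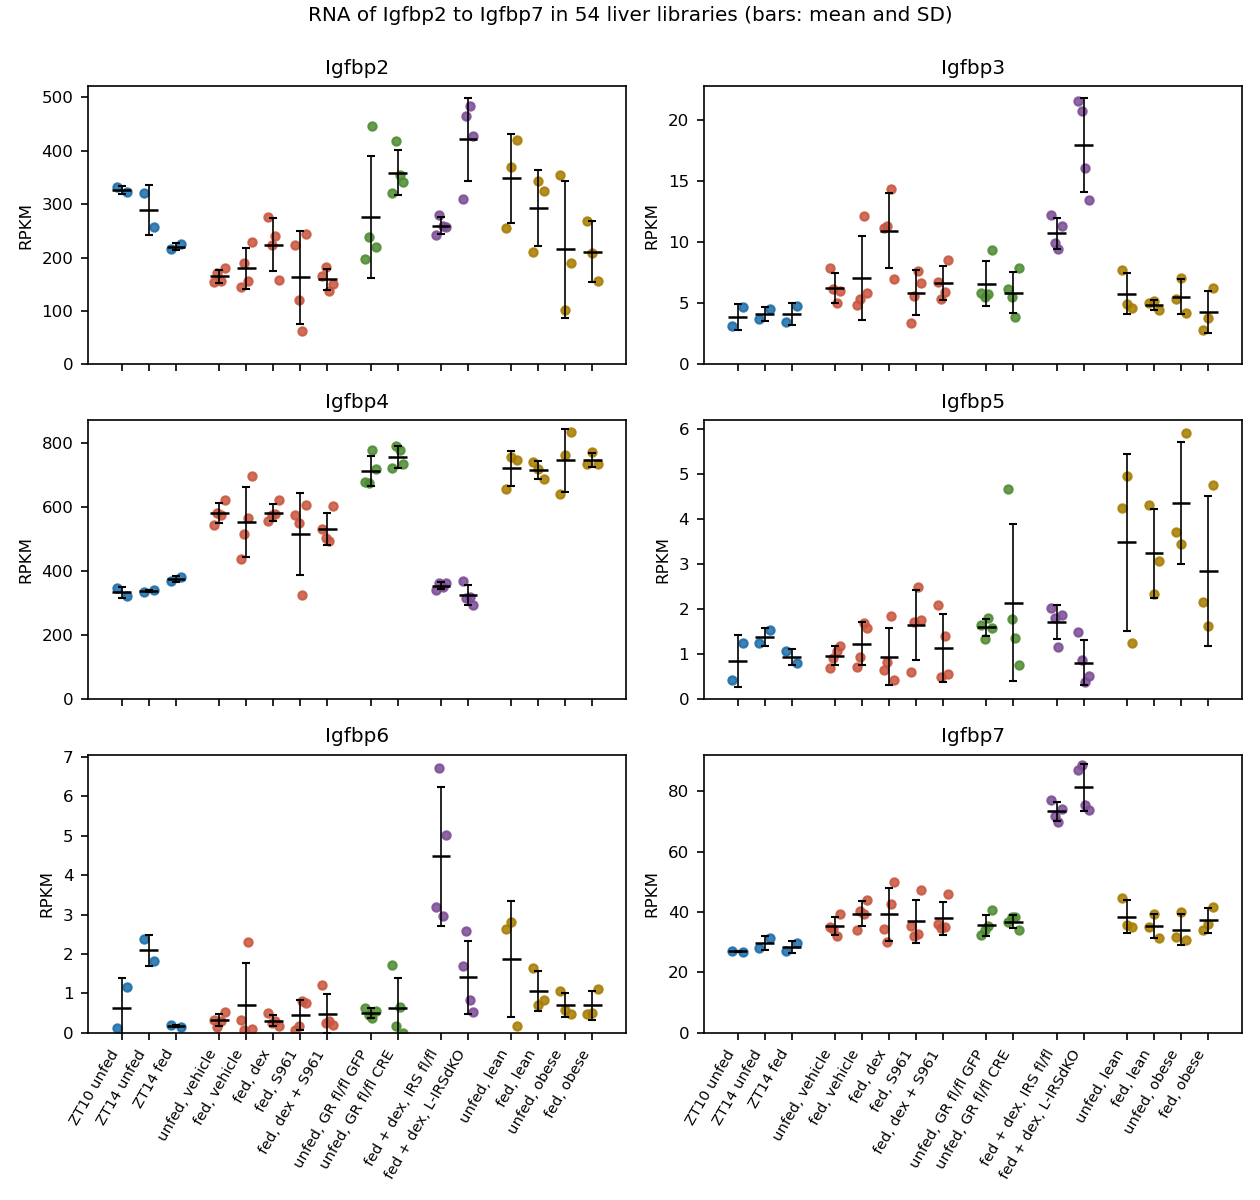
RPKM of Igfbp2 to Igfbp7 in each of the 54 libraries by group, with linear axes from 0 and black bars for the mean and SD of each group. The group means of Igfbp4 and Igfbp7 lie close together within each experiment, but single livers scatter. In the injected mice Igfbp4 runs from 325 RPKM (S961 replicate 3) to 698 RPKM (fed vehicle replicate 4). Igfbp2 and Igfbp3 are highest in L-IRSdKO livers, and Igfbp5 and Igfbp6 are low with wide scatter.

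Outside the L-IRSdKO experiment, 0 values of Igfbp2 to Igfbp7 passed a threshold. Igfbp4 differed by -0.13 to 0.15 on the log2 scale and Igfbp7 by -0.17 to 0.25 over those 14 comparisons. In the lean mice, whose Igfbp1 fell 81.1-fold, fed and unfed levels differed by -0.01 for Igfbp4 (95% interval -0.24 to 0.22), -0.12 for Igfbp7 (-0.42 to 0.18), -0.19 for Igfbp3 (-0.76 to 0.38) and -0.25 for Igfbp2 (-1.11 to 0.61).

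Igfbp2 had its largest uncalled values in obesity and in GR loss. In unfed livers it was at 354, 102 and 190 RPKM in obese and at 256, 369 and 419 RPKM in lean mice, which overlapped, with a log2 fold change of -0.84 (95% interval -1.70 to 0.02, adjusted p = 0.225). In the L-GRKO experiment it was at 198, 239, 446 and 220 RPKM with AAV-GFP and at 321, 418, 354 and 342 RPKM with AAV-CRE, a log2 fold change of 0.45 (adjusted p = 0.285). AAV-GFP replicate 3 was above all AAV-CRE livers, and without it the difference was 0.71 (adjusted p = 0.0090).

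Igfbp3 did not pass the threshold with the meal or with GR loss, where its neighbour Igfbp1 did, and the difference between the genes was not tested. Its log2 fold change was 0.00 with the meal in uninjected mice (95% interval -0.49 to 0.48) and -0.17 with GR loss (-0.63 to 0.30). With dex it was at 11.2, 11.3, 14.4 and 6.96 RPKM against 4.90, 5.32, 12.2 and 5.89 RPKM in fed vehicle livers, a log2 fold change of 0.65 (95% interval 0.08 to 1.21, adjusted p = 0.201). The groups overlapped through fed vehicle replicate 3.

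Igfbp6 and Igfbp5 varied together with mesothelial markers, which mark the cells that cover the liver surface. In uninjected mice Igfbp6 was at 0.114 and 1.16 RPKM at ZT10, 2.37 and 1.82 at ZT14-unfed, and 0.186 and 0.149 at ZT14-fed, with a log2 fold change of -1.95 with the meal (SE 0.41, adjusted p = 0.0358, not past 0.01). Summed Msln, Upk3b and Wt1 were at 0.279 to 1.08, 1.95 to 2.76 and 0.266 to 0.295 RPKM in the same 3 groups. Among 11897 genes over the 54 libraries, each centred on the mean of its experiment, the genes most like Igfbp6 were Upk3b (Pearson r 0.84), Msln (0.81), Prss23 (0.73), Fmod (0.73) and Gpm6a (0.70). Those most like Igfbp5 were Upk3b (0.78), Fmod (0.77), Gpm6a (0.70), Msln (0.69) and Igfbp6 (0.67). The points of these correlations share library and depth, and Igfbp6 rests on a median of 10.8 steps of the smallest RPKM unit per library, which in the NRF, injected and obesity experiments corresponds to 1 read. The part of surface cells in these differences was not tested.

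**Figure D4:**
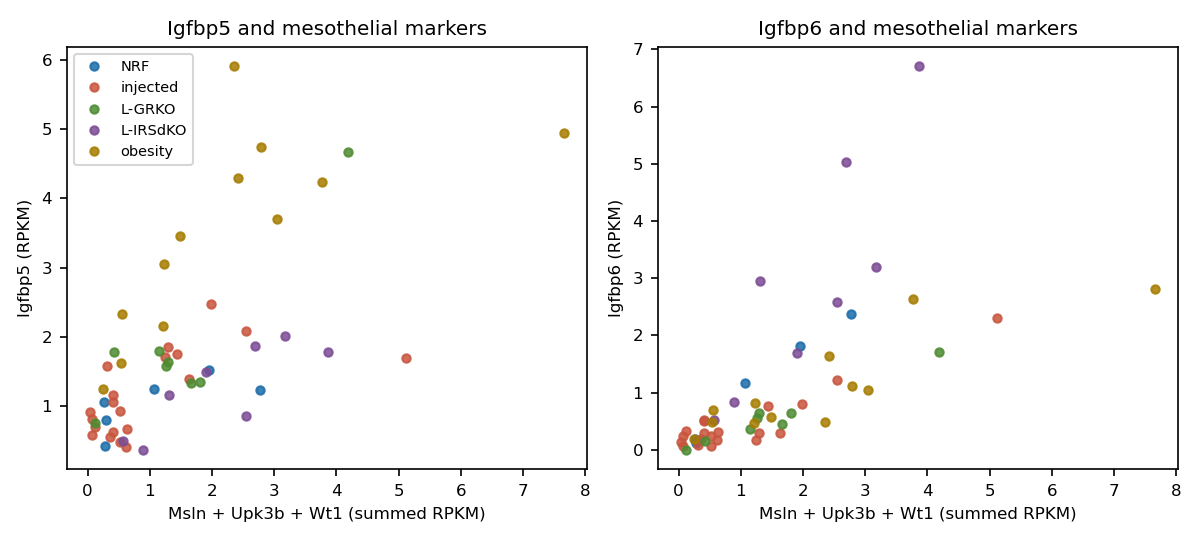
RPKM of Igfbp5 (left) and Igfbp6 (right) against the summed RPKM of Msln, Upk3b and Wt1, a point per library and colours by experiment. The 15 libraries with marker sums under 0.5 RPKM have Igfbp6 at 0.53 RPKM or less, and Igfbp5 there lies between 0.42 and 1.78 RPKM.

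The genes most like the other members were of several kinds. For Igfbp1 they were Ip6k2 (0.92), Trp53inp1 (0.90), Pck1 (0.88), which encodes the gluconeogenic enzyme phosphoenolpyruvate carboxykinase, Irf2bp2 (0.87) and Arl13b (0.86). For Igfbp4 they were Ptms (0.89), Tfr2 (0.87), Mlf2 (0.85), Akr7a5 (0.84) and Atp5d (0.84), and for Igfbp2 Apom (0.79), an apolipoprotein, Mif (0.75), Gsto1 (0.69), Dctpp1 (0.67) and Plpp2 (0.65). For Igfbp7 they were Ppp1r9b (0.70), Gpr182 (0.68) and Plvap (0.67), both known from endothelial cells, Nudc (0.67) and Cntfr (0.66), and for Igfbp3 Tnfrsf21 (0.69), Rgs2 (0.60), Susd2 (0.60), Fabp4 (0.59) and Angptl2 (0.59). Igfbp1 itself had r between -0.16 and 0.24 with the other 6 members, and the highest r between members was that of Igfbp5 and Igfbp6.

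Of the 15 genes of the wider IGF system (ligands, receptors, the acid-labile subunit, growth hormone signalling, and proteases with their inhibitors), between 8 and 10 were expressed enough to be tested. None passed in 11 of the 15 comparisons, among them the meal in uninjected, vehicle-injected and obese mice and S961 or dex alone. In lean mice the meal raised Igfals, the carrier partner of Igfbp3 and Igfbp5, by 1.15 (adjusted p = 0.0016) and lowered the insulin receptor gene Insr by 0.52 (adjusted p = 0.0058), 1 of 9 tested in each direction, where 10.2% of all genes were called in either direction. With dex plus S961 the IGF-II receptor gene Igf2r fell by 0.38, 1 of 8 tested, where 7.90% of all genes fell.

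GR loss raised 2 of 9 tested genes, the growth hormone receptor gene Ghr (0.56) and Igfals (0.36), beside 4.46% of all genes. Loss of IRS1 and IRS2 raised 1 of 10, Stat5b (0.54), beside 9.06% of all genes, and lowered 2 of 10, Ghr (-0.70) and Igfals (-2.24), beside 8.31%. Igfals was at 7.70 to 49.1 RPKM in L-IRSdKO and 52.5 to 87.4 in floxed livers, and its high L-IRSdKO value was replicate 1. Igf1, the main liver IGF, was at 43.1 to 103 RPKM in L-IRSdKO and 71.3 to 106 in floxed livers. These ranges overlapped. The median log2 fold change of the tested genes was -0.02 in L-IRSdKO beside 0.03 for all genes, and 0.27 in GR loss beside 0.08.

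Peaks near the other members differed in number. Within 50 kb of the start site, Igfbp4 (chromosome 11, 98902558 to 98913969, plus strand) had 3 GR and 5 FOXO1 peaks, of which 2 overlapped, and 1.47% of genes had at least as many of each. Igfbp6 (chromosome 15, 101974793 to 101979942, plus strand) had 4 GR and 2 FOXO1 peaks and 16 DHSs, and its nearest GR peak lay 32.7 kb downstream. Igfbp2 (chromosome 1, 72871077 to 72899048, plus strand) had 3 of each. Igfbp5, whose end lies 5457 bp from that of Igfbp2 on the minus strand (72904506 to 72921458), had 0 GR peaks and 1 FOXO1 peak, 37.5 kb downstream.

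The 2 GR and 2 FOXO1 peaks within 50 kb of the Igfbp3 start are the sites upstream of Igfbp1, 19.2 kb or more away. Igfbp7 (chromosome 5, 77778265 to 77837070, minus strand) had no GR or FOXO1 peak within 100 kb, the nearest lying about 275 kb away, and 9 DHSs within 50 kb. It shares 85 exon bases with Polr2b on the opposite strand. Members with peaks of both factors within 50 kb were thus 5 of 7, all but Igfbp5 and Igfbp7, beside 25.1% of all placed genes. They were 4 within 20 kb (12.6% of all genes) and 6 within 100 kb (40.6%). Igfbp3 enters each count through the sites upstream of Igfbp1, and Igfbp5 enters at 100 kb through sites also counted for Igfbp2. The placed genes were not filtered for expression in liver.

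Igfbp4, whose RNA differed by -0.13 to 0.15 on the log2 scale over the 15 comparisons, has a FOXO1 peak without GR in an intron. This interval is centred 4.5 kb downstream of the start. It is shown because it ends with an exact match to GTAAACA (capitals), which the Igfbp1 stretches lack. Other forms of the forkhead motif were not searched for. This GTAAACA lies outside the DHS that overlaps the interval. Nearer the start, an intron of Igfbp4 also holds overlapping GR and FOXO1 peaks on a DHS, centred 3267 and 3212 bp downstream. That shared site held no motif match. GTAAACA also occurs in the other shared site within 50 kb of the start.
Igfbp4 intronic site, plus strand of mm9, chr11:98907004-98907183: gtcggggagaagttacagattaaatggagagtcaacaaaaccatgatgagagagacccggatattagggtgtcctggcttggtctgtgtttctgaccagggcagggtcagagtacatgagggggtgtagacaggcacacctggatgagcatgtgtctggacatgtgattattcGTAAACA

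**Figure D5:**
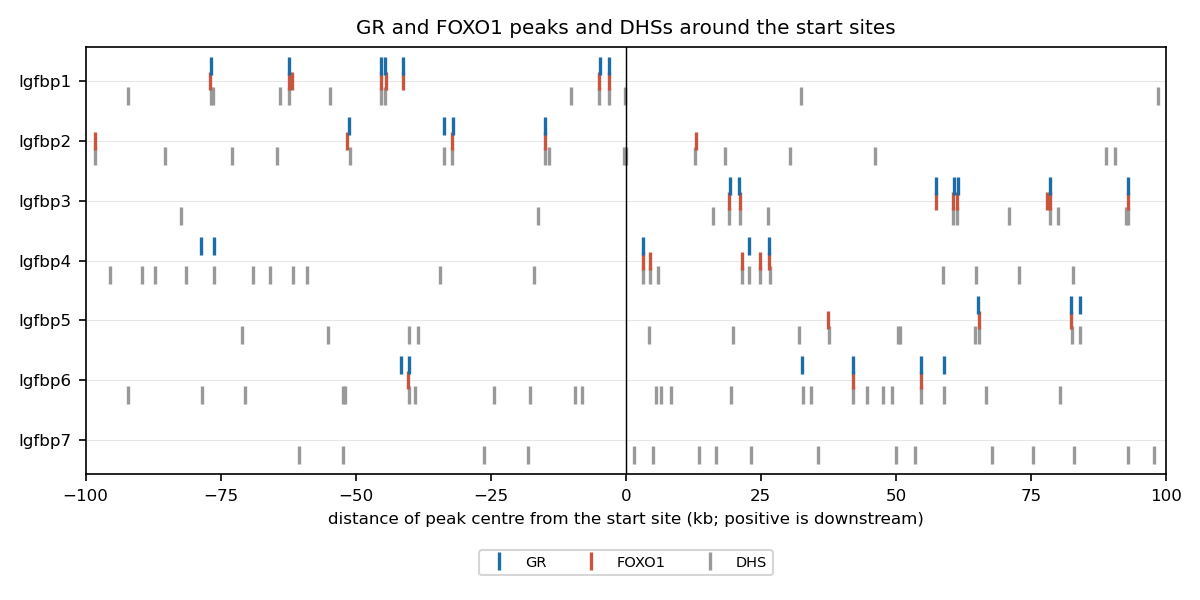
Positions of GR peaks (blue), FOXO1 peaks (red) and DHSs (grey) by distance in kb of the peak centre from each start site, with positive values downstream. Igfbp1 has its 5 shared sites within 50 kb all upstream, Igfbp3 sees the same sites downstream, and the Igfbp7 row holds DHSs but no GR or FOXO1 peak.

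Genes with a start within 100 kb of a member were few among those tested. In the lean mice, the translation factor gene Eif4b, 70.6 kb from Igfbp6, fell with the meal by 0.70 (adjusted p = 0.0023) and it was higher by 0.53 in L-IRSdKO livers (adjusted p = 0.0073). Soat2, a cholesterol esterifying enzyme gene 6.2 kb from Igfbp6, was higher by 0.60 with GR loss (adjusted p = 0.0112), and Spryd3 by 0.51 in L-IRSdKO (adjusted p = 0.0425). Outside the members, these differences are the ones that passed a threshold among the meal (uninjected and lean), GR loss and IRS loss. Only neighbours found under the same symbol in the RNA data were looked up, so Tenc1, near Igfbp6, is not covered.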

How the data were processed

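The RNA data come from 54 livers, 1 mouse each, and the positions of GR, FOXO1 and DNase I sites from 1 list each. The authors selected poly(A) RNA or depleted ribosomal RNA, aligned reads to mm9 with STAR, and deposited RPKM values for 35707 RefSeq IDs. They called peaks with HOMER against input, kept those shared by both replicates, and called DHSs on combined reads. The tool that counted RNA reads is not given in the sources used here. RPKM corrects for length and depth, but not for a few abundant genes, and a low RPKM rests on few reads.

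Each experiment was fitted apart with limma 3.58.1 (R 4.3.3) with a variance trend on log2(RPKM + 0.5), over genes whose mean reached 0.5 RPKM, with Benjamini-Hochberg adjustment over all genes tested. The thresholds were 0.01 in the NRF and obesity experiments and 0.05 elsewhere. With counts not at hand, no count model was fitted. Replicates are separate mice. Likeness and overlaps were computed with pandas 2.3.3 and numpy 2.4.6 in Python 3.11.15, and sequences were read with samtools 1.23.1 from the mm9 genome. A peak was counted for a gene up to 50 kb from its GENCODE start, and peaks overlapped from 1 shared base.

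The named genes were the 7 members, the IGF system and marker lists, Nr3c1, Irs1 and Irs2, the 5 genes most like each member, and neighbours within 100 kb. The members and lists were chosen with earlier results of these data known. The alternatives tried were 2 other pseudocounts (0.1 and 1), the filter dropped or set at 2 RPKM, 2 other scalings, all RefSeq IDs, no trend, the other threshold, a replicate block, a term for the library series, the compared groups alone, other peak distances and overlap, and each library left out. The pipeline was tested on simulated data. H3K27Ac and the libraries behind the peak lists were not used here.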

Additional observations from a re-analysis of the deposited data

Results flagged for a closer look

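Among 63 sets of a gene and a group of 4 livers, 7 held a liver that stood apart from the other 3 by Dixon's test. For normal values it flags about 1 set in 20 by chance. RPKM was tested untransformed, all 7 flagged livers were the highest of their group, and sets of different genes share livers. That rate may thus not apply here. Igfbp1 was at 25.6 RPKM in AAV-CRE replicate 3 beside 8.42 to 9.51 RPKM in the other AAV-CRE livers, still below every AAV-GFP liver. Igfbp2 was at 446 RPKM in AAV-GFP replicate 3 (others 198 to 239), and Igfbp3 at 9.34 RPKM in AAV-GFP replicate 4 (others 5.49 to 5.85). In fed vehicle replicate 3, Igfbp3 was at 12.2 RPKM (others 4.90 to 5.89) and Igfbp6 at 2.30 RPKM (others 0.076 to 0.330), and in that liver the summed mesothelial markers were at 5.13 RPKM, the highest of the injected mice. With dex plus S961, Igfbp6 was at 1.22 RPKM in replicate 1 (others 0.193 to 0.291) and Igfbp7 at 46.0 RPKM in replicate 4 (others 34.6 to 36.1).

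The meal effect on Igfbp1 differed between obese and lean mice by 3.93 on the log2 scale by limma (adjusted p = 0.0181), with every fed liver below every unfed liver in both diets. The difference passed an adjusted p of 0.05 and not the 0.01 of this experiment.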

How the results depend on the processing

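Of 698 alternative values over 39 results, 632 were classed as unchanged. For a log2 fold change this meant the same direction and the same side of the threshold. For a count of members or peaks a similar number was enough, so 3 to 6 members in L-IRSdKO were classed as unchanged from 4. Igfbp1 kept its direction in the 9 comparisons it passed. The number of members past the threshold fell from 1 to 0 between ZT10 and ZT14-unfed with no filter on low values and with only the compared groups fitted, from 1 to 0 for dex at a threshold of 0.01, and from 4 to 1 for L-IRSdKO at 0.01 (3 to 6 without single libraries). It rose from 1 to 2 for the meal in uninjected mice at 0.05 and with only the compared groups (Igfbp6), and from 0 to 1 for the meal in obese mice with a pseudocount of 1, a filter at 2 RPKM or a threshold of 0.05 and for the difference between diets with a pseudocount of 1 or a threshold of 0.05 (Igfbp1). With single libraries left out, the count ran from 0 to 1 between ZT10 and ZT14-unfed, between unfed obese and lean mice and for the difference between diets, and from 1 to 2 for GR loss. Igfbp1 changed sign in 3 uncalled contrasts. For dex plus S961 against unfed vehicle the main -0.01 became 0.01 (0.0141) after quantile normalization and 0.03 (0.0256) after median-ratio scaling, and ran from -0.43 to 0.27 without single libraries. The interaction of dex and S961 was 0.05 (0.0519) with a pseudocount of 1 and ran from -0.34 to 0.49, and the difference of fed obese and lean mice ran from -0.11 to 0.78. The cause was not tested. Of 77 uncalled values of the other members, 44 changed sign under some alternative.

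Same-numbered livers deviated together (r over 0.1) in 27 of 40 pairs of livers in the injected mice, where r ran from -0.12 to 0.61, and in 3 of 18 in the obesity experiment, 1 of 4 in L-GRKO and 0 in the other experiments. No experiment had every liver correlate best with its own number (11 of 20 did in the injected mice), so the numbers were not taken as pairing. That rule cannot show whether same-numbered livers shared a batch. The adjusted p-values and background shares in the Results come from fits without a block. With a replicate block, 4 members were called for L-IRSdKO and 1 each for GR loss, dex and the lean meal (0 for S961), and no member count changed, with Igfbp1 at -2.62 (adjusted p = 0.011) for GR loss. The block moved the number of all genes called from 352 to 928 for the vehicle meal, from 359 to 968 for dex and from 2253 to 1444 for L-IRSdKO. A term for the library series changed no call of Igfbp1. Without both first libraries of L-IRSdKO, chosen after seeing the data, Igfbp4 differed by -0.21 by limma (adjusted p = 0.033) and Igfbp5 by -0.98 (adjusted p = 0.041), and Igfbp5 by -0.96 with quantile normalization (adjusted p = 0.044). In groups of 2 or 3 mice, and for Igfbp6 at a few reads per library, depth and the number of mice limit what can be detected.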
